A study of Mus musculus with 4 samples.

Results

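In libraries of aortic smooth muscle cells from mice with both TGF-beta receptor genes, Tgfbr1 and Tgfbr2, floxed for deletion, most cells had little elastin mRNA, but 169 cells had a high level of it. These Eln-high KO cells were chosen by the Eln count alone: at least 10 Eln UMIs (unique molecular identifiers, each counting 1 captured mRNA molecule) and at least 10 Eln UMIs per 10000 UMIs of the cell. KO replicate 1 gave 109 and KO replicate 2 gave 60, out of 7774 knockout cells and 13468 cells in all that had at least 1000 UMIs, at least 500 genes and at most 10% mitochondrial UMIs. They were set against 6814 Eln-low KO cells of the same libraries, with under 5 Eln UMIs per 10000 (3571 in replicate 1 and 3243 in replicate 2), and against all 5694 kept cells of 2 WT libraries (2429 and 3265). The other 791 KO cells met neither rule; 20 of them in replicate 1 and 14 in replicate 2 were above 10 Eln UMIs per 10000 but had under 10 Eln UMIs.

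The KO mice carried floxed alleles of both receptors (Tgfbr1f/f and Tgfbr2f/f) together with Myh11-CreERT2 and mT/mG, and the WT mice only Myh11-CreERT2 and mT/mG; all were C57BL/6J and 12 weeks old at collection. All mice carried a tamoxifen-inducible Cre driven by the promoter of Myh11, the smooth muscle myosin heavy chain gene, and a reporter that is red (tdTomato) before and green (eGFP) after Cre acts, so the WT cells were exposed to Cre and tamoxifen too. Tamoxifen was injected for 5 days, at 1 mg per day from 4 weeks of age or at 2 mg per day from 11 weeks, and the labels do not tie a library to a course. GFP+ cells of the ascending aorta and arch were sorted alive and sequenced from the 3′ end of the mRNA, in 2 libraries per genotype. How many animals each library holds is not stated, so p-values speak only for these libraries. In tests against WT cells they measure the spread between libraries. In tests with the library as a block, that spread is taken out, and what is left is how the difference within a library varied from library to library. With only 2 libraries per genotype, the edgeR tests below estimate either spread largely from all genes together. A small SE or p-value of 1 gene therefore does not show that its 2 libraries were alike, as with Des below.

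Elastin is secreted by smooth muscle cells as soluble tropoelastin, is placed on a scaffold of fibrillin microfibrils with the help of fibulins, and is cross-linked by lysyl oxidases into the elastic lamellae of the aortic wall. TGF-beta binds a receptor complex of the TGFBR2 and TGFBR1 kinases, which phosphorylates SMAD2 and SMAD3, and these switch on genes of the matrix and of feedback inhibition such as Pmepa1 and Smad7. Elastin and many other matrix genes are known targets of this pathway in smooth muscle, and the contractile genes respond to it as well.

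The Eln-high cells summed to 1596094 UMIs in KO replicate 1 and 931603 in KO replicate 2, the Eln-low cells to 50044148 and 46820120, and the WT cells to 35255748 and 49723949, so that the Eln-high sums set the precision. The median cell had 13914 and 15189.5 UMIs among Eln-high KO cells and 13949 and 14398 among Eln-low KO cells. Between 3 and 6 barcodes were shared by each pair of libraries, and 1 of the 169 cells carried such a barcode.

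Tgfbr1, whose floxed exons the labels do not name, had 66.4 and 92.3 counts per 1000000 UMIs (CPM) in Eln-high KO cells, 73.1 and 77.3 CPM in Eln-low KO cells and 80.0 and 81.5 CPM in WT cells. Tgfbr2 had 57.0 and 70.8 CPM in Eln-high KO cells, 46.6 and 47.7 CPM in Eln-low KO cells and 51.1 and 44.6 CPM in WT cells. Counts from the 3′ end can lie outside the deleted part of a gene, so neither gene checks the deletion here. Between Eln-high and Eln-low KO cells the log2 difference was -0.06 ± 0.13 (SE) for Tgfbr1 (adjusted p = 0.884) and 0.31 ± 0.14 for Tgfbr2 (adjusted p = 0.177), and neither passed the test.

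Eln (GRCm38 chr5:134702593-134747323, minus strand) chose the cells, so its values are a description without a test. Summed over cells, it had 3101 and 3348 CPM in Eln-high KO cells, 190.4 and 152 CPM in Eln-low KO cells, and 2739.8 and 2763 CPM in WT cells. The sums of the Eln-high KO cells lay close to WT, but the cells themselves mostly did not: their median was 13.3 and 13.5 Eln UMIs per 10000, against 1.67 and 1.24 in Eln-low KO cells and 24.2 and 23.7 in WT cells. The threshold cut a continuous slope, with 60 and 12 KO cells at 9 to 10 per 10000 just outside it and 23 and 10 at 10 to 11 just inside. Under the same rule 84.2% and 86.6% of WT cells were Eln-high, against 2.56% of KO replicate 1 (exact binomial 95% interval 2.11 to 3.08) and 1.70% of KO replicate 2 (1.30 to 2.19); the intervals cover counting error only.

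**Figure D1:**
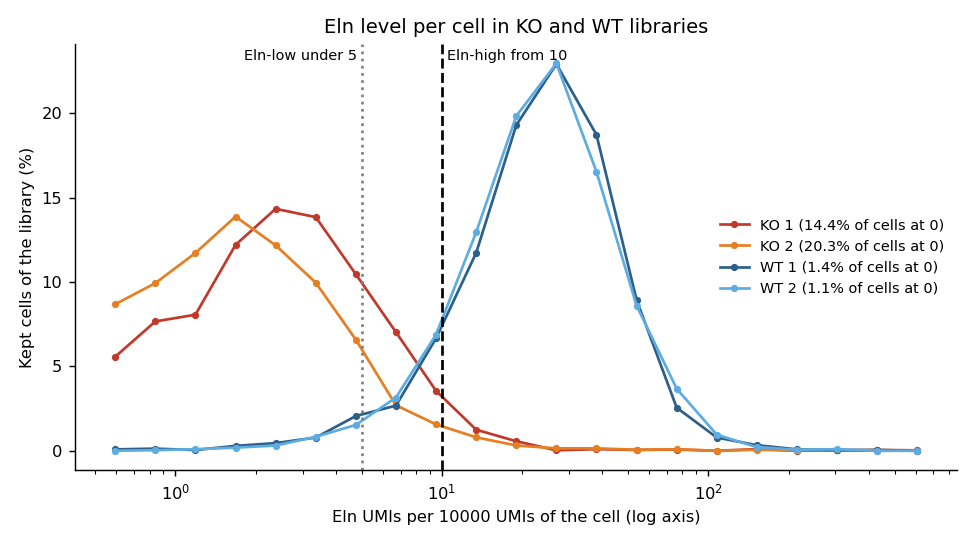
Share of cells (y axis) by Eln UMIs per 10000 UMIs of the cell (x axis, log scale) in each of the 2 KO and 2 WT libraries, with the thresholds for Eln-low and Eln-high cells. Cells without an Eln UMI are given in the legend and were 14.4% and 20.3% of the KO libraries and 1.4% and 1.1% of the WT libraries, and 25 and 28 KO cells above 0 and under 0.5 are not drawn; KO cells at 10 or more form a thin upper tail that reaches past most WT cells.

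A few cells carried most of the elastin of the group. The highest had 631 Eln UMIs per 10000 in KO replicate 1 and 268 in KO replicate 2, and the 5 highest cells of each library held 42.0% and 50% of all Eln UMIs of the Eln-high cells. Only 38 of the 169 cells (21 and 17) had 20 or more per 10000, and they held 65.9% and 72.3% of those UMIs. The other 131 cells lay between 10 and 20 per 10000, below the WT median.

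The cells were not of 1 kind, and the name smooth muscle holds for most of them but not for all. Markers of other cell types (at least 3 UMIs, and at least 3 per 10000, of a type's marker list) were carried by 26 cells: 9 had endothelial markers, 16 had fibroblast without endothelial markers and 1 had cardiomyocyte markers. Fibroblast markers were carried by 12 cells of KO replicate 1 and 11 of KO replicate 2 in all, since all 4 cells with endothelial markers in replicate 1 and 3 of the 5 in replicate 2 had them too. Another 14 had none of these but under 250 UMIs per 10000 of 7 smooth muscle markers (Acta2, Tagln, Myh11, Cnn1, Myl9, Lmod1, Smtn). The remaining 129 cells (87 and 42) had a median of 517 smooth muscle marker UMIs per 10000, beside 572 in KO replicate 1 cells and 539.7 in KO replicate 2 cells with some Eln but under 5 per 10000. Eln and kind went together: the median was 52.7 Eln UMIs per 10000 in the cells with endothelial markers, 53.0 in those with fibroblast but no endothelial markers, 16.1 in those low in smooth muscle markers and 12.9 in the 129 others. Of all KO cells with endothelial markers, 9 of 40 were Eln-high, and of those with fibroblast markers without endothelial ones, 16 of 132. Vwf is in the endothelial list, and Lum, Pi16 and Cd34 are in the fibroblast list. A high share of their UMIs in cells with other markers therefore follows from the choice of cells.

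The 9 cells with endothelial markers were chosen by a list that holds Pecam1, Vwf and Cdh5, so the levels of those genes only describe the choice. These cells had 2223 CPM of Pecam1, 1196 of Vwf and 423 of Cdh5, genes of the endothelial surface, junctions and storage granules, with only 222 CPM of Myh11. Cytl1, a secreted cytokine-like protein, reached 4033 CPM in them (6811 and 2477 CPM in KO replicates 1 and 2), against 2.57 CPM in the 129 cells without other markers. Kdr, a defining endothelial receptor, was at 0 in the Eln-high sums of both libraries. The 16 cells with fibroblast markers had 1352 CPM of Dcn and 629 of Lum, small matrix proteoglycans, and 4039 CPM of Col3a1, but also 1787 CPM of Myh11. The libraries differed: in KO replicates 1 and 2 Dcn had 651 and 2094 CPM, Lum 442 and 827 CPM and Col3a1 2967 and 5173 CPM. Lum is in the list that chose these 16 cells, and Dcn and Col3a1 are not. The 14 cells low in smooth muscle markers had 23221 CPM of Mgp, the matrix Gla protein that restrains calcification of vessels. Mgp was at 30791 CPM in the 10 of KO replicate 1 but at 3290 CPM in the 4 of KO replicate 2. The 16 cells with fibroblast markers had 17459.5 CPM of Mgp. In the 14 cells Dcn was at 5.56 CPM, and Vwf and Cdh5, of the list they were chosen to lack, were at 0. Macrophage markers were at 0 for 7 of 8 genes, and all 6 lymphocyte markers were at 0 in the Eln-high cells. The defining cardiomyocyte markers Myh6, Nppa and Myl7 were at 0 as well, so the 1 cell with cardiomyocyte markers was counted from Ryr2 and Tnni3 alone, and the 5-gene sum, at 48.9 and 55.8 CPM in Eln-high KO cells, was within the range of the other groups (42.6 to 64.4 CPM).

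The reporter genes moved with these kinds. At least 1 tdTomato UMI was present in 12 of 109 Eln-high cells (11.0%, exact binomial 95% interval 5.82 to 18.4) of KO replicate 1 and 10 of 60 (16.7%, 8.29 to 28.5) of KO replicate 2, against 2.58% and 1.42% of Eln-low KO cells; in Eln-high WT cells it was 0.0489% and 0.0707%. tdTomato had 50.7 and 65.5 CPM in Eln-high KO cells and 8.79 and 5.47 CPM in Eln-low KO cells, with 80.3% of the Eln-high UMIs in cells with other markers. With every cell thinned to 5000 UMIs, the shares were 9.17% and 10.2% of Eln-high and 1.79% and 1.19% of Eln-low KO cells. eGFP had 7050.3 and 6315 CPM in Eln-high KO cells, 8003 and 7872 CPM in Eln-low KO cells and 5632 and 5826 CPM in WT cells. No eGFP UMI was found in 3 of the 60 cells of KO replicate 2 and in 0 of the 109 of KO replicate 1, which allows a share of up to 2.75%. All 3 cells had endothelial markers, and 13 of the 22 cells with tdTomato had endothelial or fibroblast markers. With the cells that had tdTomato left out, 862 genes separated Eln-high from Eln-low cells in the test described below, against 1368 with them.

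**Figure D2:**
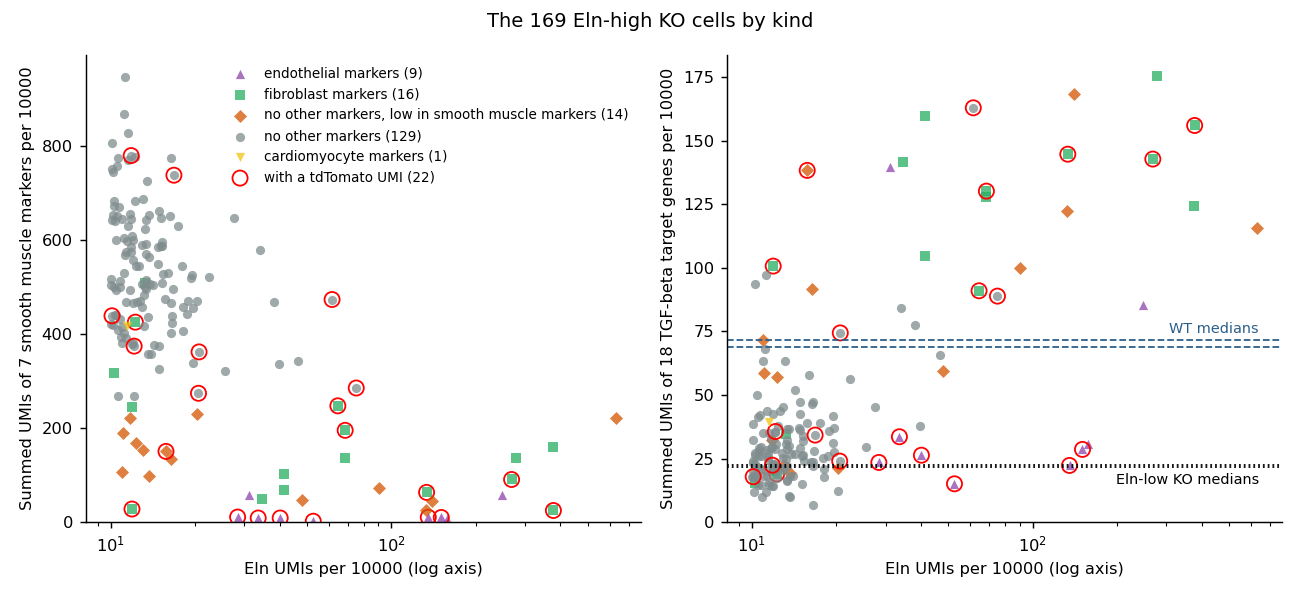
Each point is 1 of the 169 Eln-high KO cells, by its Eln UMIs per 10000 (x axis, log scale) and by its summed UMIs per 10000 of 7 smooth muscle markers (left) or 18 TGF-beta target genes (right); colours give the kind of cell and red circles mark a tdTomato UMI. Cells above 50 Eln UMIs per 10000 were mostly low in smooth muscle markers and high in TGF-beta target UMIs.

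The summed level of 18 TGF-beta target genes per cell was nearer to Eln-low KO cells than to WT. The median was 28.4 and 31.6 UMIs per 10000 in Eln-high KO cells, 21.7 and 22.4 in Eln-low KO cells and 68.8 and 71.6 in WT cells, and the library medians of the 3 groups did not overlap. A level above the lower WT median was reached by 14 of 109 and 14 of 60 Eln-high KO cells (12.8% and 23.3%), against 0.336% and 1.30% of Eln-low KO cells. By kind, the median was 28.6 with endothelial markers, 126 with fibroblast markers, 65.4 in cells low in smooth muscle markers and 27.4 in the 129 cells without other markers. With 2 libraries a group, the smallest p of an exact permutation test is 0.333, so these medians carry no test.

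Most Eln-high KO cells also lay among KO cells in 30 principal components of 2000 variable genes, Eln left out. Of the 15 nearest neighbours of a cell, WT cells made up 6.91% and 12.3% on average for Eln-high KO cells, 0.489% and 0.637% for Eln-low KO cells, and 99.3% and 99.2% for Eln-high WT cells. In 13 of the 169 Eln-high cells (6 and 7) most neighbours were WT cells, against 4 of the 6814 Eln-low cells. These 13 cells had a median of 64.5 Eln UMIs per 10000 and 116 TGF-beta target UMIs per 10000; 8 were low in smooth muscle markers, 5 had a tdTomato UMI and 4 had markers of another type. Without the cells low in smooth muscle markers the averages were 2.95% and 7.26%.

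Eln-high and Eln-low KO cells were then compared over 13556 genes, with Eln left out, on UMIs summed per library with the library as a block (edgeR's quasi-likelihood test, Benjamini-Hochberg adjusted over all genes, threshold 0.05). The test called 10.1% of genes: Eln-high cells were higher for 716 (5.28%) and lower for 652 (4.81%), and the median log2 difference of all genes was -0.01. The summed fibroblast markers were at 137 and 456 CPM in Eln-high and 30.5 and 39.8 CPM in Eln-low cells, and 7 of 8 rose. The summed endothelial markers were at 179 and 293 CPM in Eln-high and 25.8 CPM in both libraries of Eln-low cells, and 6 of 6 rose, whereas all 7 smooth muscle markers fell. With KO replicate 1 left out 769 genes passed and with KO replicate 2 left out 544, the spread then coming from the WT sums in a joint fit. Differences below are also given for the 125 Eln-high cells between 10 and 20 Eln UMIs per 10000 without markers of other types, a choice made after seeing the data. With all cells at 10 to 20 per 10000, 1.89% of genes were higher and 1.66% lower; with all cells that lacked other markers, 2.61% and 2.79%. In the 125 cells 255 of 13268 genes (1.92%) were higher and 245 (1.85%) lower, among them 218 of the 716 and 220 of the 652. A value in brackets after a log2 difference is that of the 125 cells.

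The genes that build elastic fibres rose with Eln. Of 18 tested, 13 were higher and 0 lower, with a median log2 difference of 0.86; in the 125 cells 7 were higher (Fbln1, Fbln2, Fbln5, Lox, Loxl1, Ltbp4, Mfap4), with a median of 0.30. Fbln5 (fibulin 5, chr12:101746565-101819055, minus strand), which brings tropoelastin to the microfibril, had 441 and 729.9 CPM in Eln-high KO cells, 78.5 and 90.1 CPM in Eln-low KO cells and 492 and 526 CPM in WT cells. The Eln-high sums were thus above every Eln-low sum and near WT, a log2 difference of 2.65 ± 0.08 from Eln-low cells (adjusted p = 1.58e-202). In the 125 cells Fbln5 had 99.4 and 245 CPM and a log2 difference of 0.85 (adjusted p = 4.38e-11), and cells at 20 or more Eln UMIs per 10000 supplied 78.2% of its UMIs. Fbln2, another fibulin, had 87.7 and 99.8 CPM in Eln-high and 4.76 and 3.20 CPM in Eln-low cells (log2 4.45 ± 0.22), with 2.51 in the 125 cells. Among the 129 cells, its 16 UMIs in KO replicate 1 came from 11 of 87 cells, but all 11 in KO replicate 2 came from 1 of 42 cells. Mfap4, a microfibril-associated protein, had 172 and 345 CPM in Eln-high KO cells, 51.0 and 50.7 CPM in Eln-low KO cells and 969.6 and 1059 CPM in WT cells. Its log2 difference from Eln-low cells was 2.16 ± 0.10, and 0.53 in the 125 cells (adjusted p = 0.0115). Over all kept cells at 10 to 20 Eln UMIs per 10000, Mfap4 had 55.9 CPM in KO replicate 1 and 119 CPM in KO replicate 2. At that Eln level it was thus clearly raised only in KO replicate 2.

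Fbln5 did not climb evenly with Eln. Over all kept cells of KO replicate 1, it had 79.2 CPM in cells without Eln, 78.3 in those above 0 and under 5 Eln UMIs per 10000, 89.4 at 5 to 10, 104 at 10 to 20, 858 at 20 to 50 and 2905 at 50 and above. KO replicate 2 gave 84.1, 91.4, 107, 244, 1406 and 2398 CPM for the same bins. In the same bins WT replicate 1 had 426, 391, 431, 437, 506 and 667 CPM, and WT replicate 2 had 234, 379.6, 372, 413, 543 and 962 CPM. The bins without Eln held only 33 and 35 WT cells. The 2 highest bins held 10 and 12 cells in KO replicate 1 and 12 and 8 in KO replicate 2, and those at 50 and above had medians of 89.1 and 81.5 smooth muscle marker UMIs per 10000.

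**Figure D3:**
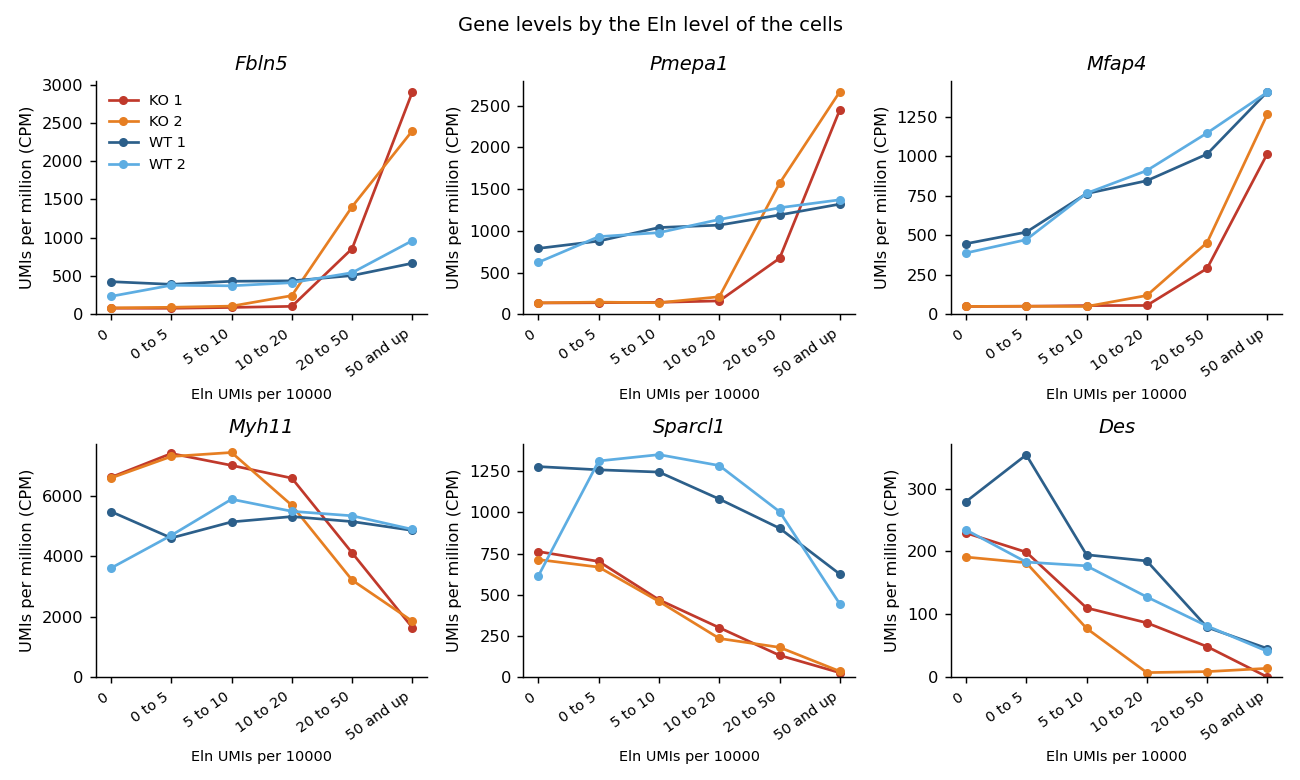
Level of 6 genes in CPM (y axes, from 0) over all kept cells in bins of Eln UMIs per 10000 (x axes) for the 2 KO and 2 WT libraries. In KO libraries Fbln5, Pmepa1 and Mfap4 stay near the level of Eln-low cells up to 10 Eln UMIs per 10000 and are high in the 2 top bins, while Sparcl1 and Des decline from low Eln on.

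Collagens followed. Of 15 interstitial collagen genes, 13 were higher and 0 lower (median log2 1.04), and in the 125 cells 5 of 14 were higher and 1 lower. Col1a1, a chain of type I collagen, had 625 and 887 CPM in Eln-high KO cells, 279 and 247 CPM in Eln-low KO cells and 578 and 566 CPM in WT cells (log2 1.39 ± 0.08 against Eln-low cells; 0.61 in the 125 cells). Col3a1, the chain of type III collagen, had 807 and 1399 CPM in Eln-high and 420.5 and 399.7 CPM in Eln-low cells (log2 1.27 ± 0.08), but 0.06 in the 125 cells (adjusted p = 0.884). Col3a1 thus passed in all cells but not in the 125, and cells with other markers supplied 50.4% of its UMIs. With DESeq2 its difference over all cells was about as large, 1.28, but did not pass (adjusted p = 0.0521). Col15a1, a collagen of the basement membrane zone, had 17.5 and 22.5 CPM in Eln-high KO cells, 4.52 and 3.89 CPM in Eln-low KO cells and 277 and 295 CPM in WT cells. It rose by 2.11 ± 0.34 on the log2 scale against Eln-low cells (1.77 in the 125 cells) while staying 3.99 below WT, the largest fall against WT among the named genes.

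Basement membrane genes rose in 9 of 18 cases and fell in 1, and in the 125 cells rose in 6 of 17. Sparc, a collagen-binding matrix protein, had 2101 and 2432 CPM in Eln-high and 839 and 790.1 CPM in Eln-low cells (log2 1.37 ± 0.07; 0.27 in the 125 cells), and Col4a1, a type IV collagen chain, differed by 0.42 ± 0.08 (0.31). Proteoglycan and matricellular genes rose in 15 of 21 cases and fell in 1 (median log2 1.37), and in the 125 cells rose in 6 of 19 and fell in 1. Mgp had 6833 and 4095 CPM in Eln-high KO cells, 2067 and 1962 CPM in Eln-low KO cells and 5908 and 6012 CPM in WT cells (log2 1.29 ± 0.07; 0.51 in the 125 cells). Ccn5, a secreted growth inhibitor of smooth muscle, had 25.7 and 81.6 CPM in Eln-high KO cells, 3.66 and 4.68 CPM in Eln-low KO cells and 60.6 and 66.9 CPM in WT cells (log2 3.41 ± 0.27; 2.25 in the 125 cells). Lum and Dcn rose by 2.61 ± 0.16 and 2.72 ± 0.12, but cells with other markers supplied 96.7% and 93.9% of their UMIs and neither passed in the 125 cells (adjusted p = 0.713 and 0.6). Lum is a fibroblast marker, so its share and its lost call follow from the choice of cells. Of 30 genes for collagen folding and secretion, 16 rose and 0 fell, and in the 125 cells 4 rose; Adamts2, the procollagen N-proteinase, rose by 1.01 ± 0.12 (0.61) and Hsp90b1, an endoplasmic reticulum chaperone, by 0.51 ± 0.08 (0.29).

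TGF-beta target genes rose in 11 of 18 cases and fell in 2 (Comp, Postn), with a median log2 difference of 0.79. In the 125 cells only 4 of 17 rose, Ccn2 and Col1a1 among them, and 1 fell, with a median of 0.12. Pmepa1 (chr2:173224458-173276533, minus strand), a feedback inhibitor of the pathway, had 428 and 765 CPM in Eln-high KO cells, 138 and 144 CPM in Eln-low KO cells and 1148 and 1213 CPM in WT cells. Both Eln-high sums lay between the Eln-low and the WT sums (log2 1.91 ± 0.08 against Eln-low cells), whereas the 125 cells had 159 and 153 CPM, close to Eln-low cells (log2 0.10, adjusted p = 0.842). Ltbp2, a latent TGF-beta binding protein of the microfibril, rose by 2.76 ± 0.12, and by 0.60 in the 125 cells, where it missed the threshold (adjusted p = 0.15). Ccn2, connective tissue growth factor, had 899 and 1541 CPM in Eln-high KO cells, 324 and 542 CPM in Eln-low KO cells and 2481 and 2844 CPM in WT cells (log2 1.38 ± 0.08; 0.93 in the 125 cells, adjusted p = 2.72e-35).

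Of 21 genes for ligands, receptors and SMADs of TGF-beta signalling, 6 rose (Bmpr2, Eng, Ltbp1, Tgfb1, Tgfb2, Tgfb3) and 0 fell, and in the 125 cells 3 rose. Tgfb3, a TGF-beta ligand, had 145 and 201 CPM in Eln-high KO cells, 83.7 and 110.3 CPM in Eln-low KO cells and 71.1 and 67.5 CPM in WT cells. It was higher in both Eln-high sums than in any other sum, by 0.72 ± 0.10 on the log2 scale and by 0.99 in the 125 cells. Of 8 genes known as BMP targets, 1 rose (Hey1, a Notch and BMP responsive repressor, 1.15 ± 0.37, adjusted p = 0.024) and 1 fell (Id2, -0.31 ± 0.08). Neither of these passed in the 125 cells, with either KO library left out or with DESeq2, but Hey1 kept about its size: 1.11 in the 125 cells (adjusted p = 0.0957), 0.93 without KO replicate 1, 1.26 without KO replicate 2 and 1.13 with DESeq2. Id2 stood at -0.16 in the 125 cells (adjusted p = 0.432), -0.32 without KO replicate 1, -0.31 without KO replicate 2 and -0.30 with DESeq2.

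Contractile genes were mostly lower in Eln-high KO cells: 26 of 37 fell and 2 rose (Mylk4, Tpm4), with a median log2 difference of -0.42, and in the 125 cells 15 fell and 2 rose. Myh11 had 5979 and 4796 CPM in Eln-high KO cells, 7292 and 7173 CPM in Eln-low KO cells and 5153 and 5363 CPM in WT cells. It fell by 0.54 ± 0.07 on the log2 scale (by 0.26 in the 125 cells, adjusted p = 2.9e-06). Des, the muscle intermediate filament desmin, had 76.4 and 7.51 CPM in Eln-high KO cells, 203 and 184 CPM in Eln-low KO cells and 120.1 and 101 CPM in WT cells, a log2 difference of -2.14 ± 0.13 (-1.80 in the 125 cells). Tnnt2, a troponin of striated muscle, had 199 and 157 CPM in Eln-high and 487 and 369 CPM in Eln-low cells (-1.37 ± 0.09; -1.96 in the 125 cells); 48.2% of its UMIs in Eln-high cells came from cells with other markers. Actg2, the enteric smooth muscle actin, fell by 0.93 ± 0.08 (-0.52). The Eln-high sums differed widely for Des, which was far lower in KO replicate 2, and with DESeq2 the difference was -3.05 and did not pass (adjusted p = 0.303).

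Genes of modulated smooth muscle, the state in which contractile cells take up features of mesenchymal cells, rose in 12 of 15 cases and fell in 0, and in the 125 cells rose in 7 of 12. Vcam1, an adhesion receptor for leukocytes, had 143 and 152 CPM in Eln-high KO cells, 21.6 and 17.2 CPM in Eln-low KO cells and 24.1 and 23.5 CPM in WT cells (log2 2.81 ± 0.13; 1.54 in the 125 cells). Klf4, a transcription factor of this state, had 107 and 105 CPM in Eln-high KO cells, 38.6 and 35.2 CPM in Eln-low KO cells and 46.1 and 53.2 CPM in WT cells (1.41 ± 0.13; 1.14). Both stood above every other sum. Of the Vcam1 UMIs, however, 102 lay in the 9 cells with endothelial markers and 136 in the 16 with fibroblast markers. The 129 cells without other markers held 79. There Vcam1 had 21.9 CPM in KO replicate 1 and 76.8 CPM in KO replicate 2, where 5 of 42 cells held it. Ly6a, Cytl1, Lum and Dcn of the same list took between 89.7% and 99.1% of their Eln-high UMIs from cells with markers of other types. Lum is itself one of those markers. For Cytl1 the 125 cells had 0 and 3.23 CPM.

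**Figure D4:**
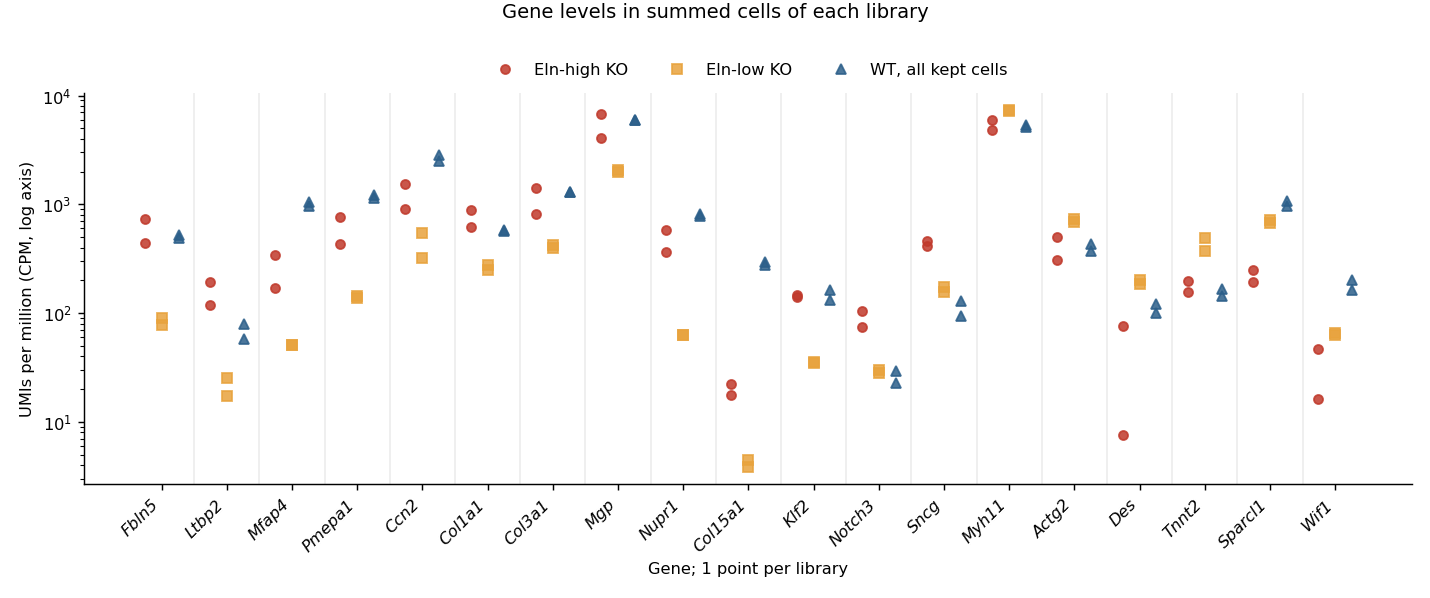
Level of 19 genes in CPM (log axis) in the summed Eln-high KO, Eln-low KO and WT cells, 1 point per library. Fbln5, Mgp and Col1a1 of Eln-high KO cells lie near WT, Mfap4, Pmepa1 and Ccn2 between Eln-low KO and WT, and Notch3 and Sncg above both.

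Some genes differed as much or more in the 125 cells as in all 169. Klf2, a flow-responsive transcription factor, had 139.7 and 146 CPM in Eln-high KO cells, 35.9 and 35.1 CPM in Eln-low KO cells and 162 and 131 CPM in WT cells (log2 1.90 ± 0.12; 1.91 in the 125 cells). Notch3, the Notch receptor of mural cells, had 104 and 75.1 CPM in Eln-high KO cells, 30.3 and 28.4 CPM in Eln-low KO cells and 29.3 and 22.8 CPM in WT cells (1.53 ± 0.14; 1.84). Sncg, gamma-synuclein, had 463 and 414 CPM in Eln-high KO cells, 155 and 174 CPM in Eln-low KO cells and 130.5 and 93.9 CPM in WT cells (1.32 ± 0.08; 1.63). Igfbp2, a binding protein of insulin-like growth factors, rose by 1.88 ± 0.16 (2.02) with 0% of its UMIs from cells with other markers. In the 38 cells at 20 or more Eln UMIs per 10000, by contrast, Notch3 stood at -0.28 against Eln-low cells (adjusted p = 0.793) and Tgfb3 at -0.40 (adjusted p = 0.35). For Notch3 and Sncg the Eln-high KO sums exceeded Eln-low KO and WT sums alike, while Klf2 reached the WT range. Nupr1, a stress-responsive chromatin protein, had 363 and 575 CPM in Eln-high KO cells, 62.8 CPM in both libraries of Eln-low KO cells and 780.5 and 809.8 CPM in WT cells (2.75 ± 0.09; 1.05).

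Among the falls, Sparcl1, a matricellular relative of Sparc, had 251 and 194 CPM in Eln-high KO cells, 710.4 and 676 CPM in Eln-low KO cells and 963 and 1067 CPM in WT cells. It fell by 1.73 ± 0.09 on the log2 scale (-1.43 in the 125 cells), away from both other groups. Chchd10, a mitochondrial protein, fell by 1.83 ± 0.23 (-1.48), and Wif1, a Wnt inhibitor, by 1.29 ± 0.17 (-1.34), though Wif1 stood at -0.53 without KO replicate 1 (adjusted p = 0.197). Dlgap1, a scaffold protein, fell by 1.42 ± 0.20 (-1.78), and Bex4, Cldn22, Tcap, Irs2 and Atcayos fell by 1.13 to 1.45, each also lower in the 125 cells. Most named falls thus held in cells without other markers.

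**Figure D5:**
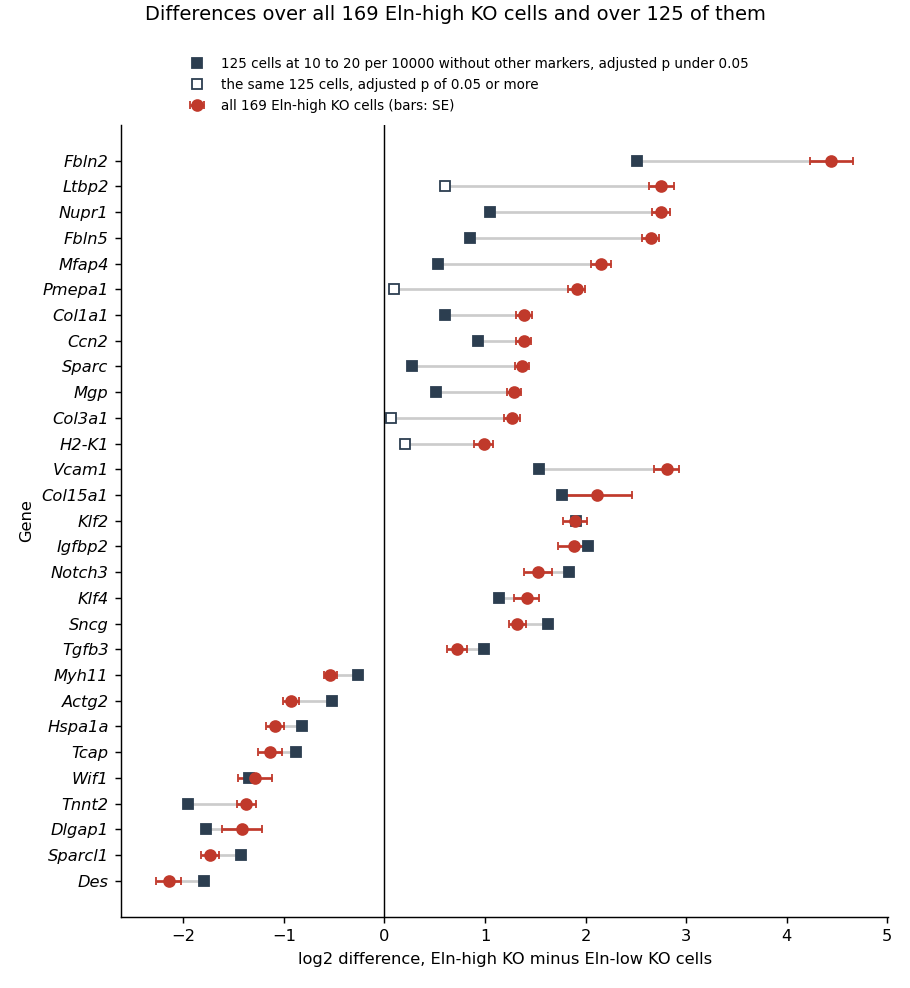
Log2 difference of Eln-high against Eln-low KO cells for a selection of the named genes, 1 gene per row, over all 169 Eln-high cells (circles, bars for the SE) and over the 125 at 10 to 20 Eln UMIs per 10000 without markers of other types (squares, filled where the adjusted p is under 0.05). Some rises carried mostly by cells with other markers, such as Ptprb, Vwf, Cytl1, Ly6a, Lum, Dcn and Igf1, are not drawn. Others are, such as Fbln2, Fbln5 and Nupr1, with 79.8%, 59.4% and 56.9% of their Eln-high UMIs from such cells. For falls such as Des and Sparcl1 and rises such as Notch3, Sncg, Klf2 and Igfbp2 both marks lie close together, while for Fbln5, Pmepa1 and Col3a1 the square lies far nearer to 0.

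The largest rises were of another sort. Adamtsl2, a microfibril-associated protein, had 19.4 and 63.3 CPM in Eln-high and 0.0400 and 0.0854 CPM in Eln-low KO cells, and it had no UMI in the 125 cells. Ptprb and Vwf, genes of endothelium, rose by 5.80 ± 0.34 and 4.73 ± 0.34, with 98.2% and 98.3% of their UMIs from cells with other markers; in the 125 cells Ptprb stood at -0.54 (adjusted p = 0.982) and Vwf at -0.61 (adjusted p = 0.945). Ly6a, Igf1, Pi16 and Cd34, genes abundant in adventitial fibroblasts, took 99.1%, 91.4%, 92.7% and 96.5% of their UMIs from cells with other markers of any type. In KO replicate 1, Pi16 had 15 UMIs in the 4 cells with endothelial markers and 0 in the 8 with fibroblast but no endothelial markers. Vwf, Pi16 and Cd34 are on the marker lists, so their shares and their loss in the 125 cells follow from the choice of cells. Ptprb, Ly6a and Igf1 are not on those lists. Prss12, a serine protease, rose by 4.53 ± 0.24 and still by 2.40 in the 125 cells, with 3.94 and 38.7 CPM there. Of these genes only Prss12 passed in the 125 cells.

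The remaining lists moved in part. Calcification and chondrogenic genes rose in 7 of 14 cases and fell in 1; Clec11a, a growth factor for bone-forming cells, rose by 1.90 ± 0.24 (1.13 in the 125 cells), while Bmp4 rose by 4.31 ± 0.42 with 94.2% of its UMIs from cells with other markers. Growth factor genes rose in 7 of 16 cases, and Igfbp4 did by 0.66 ± 0.10 (0.47). Integrin and focal adhesion genes rose in 2 of 25 and fell in 4, Fermt2, kindlin 2, by 0.39 ± 0.08. Immediate early and dissociation stress genes rose in 5 of 27 (Egr1, Ier2, Junb, Klf2, Klf4) and fell in 10, Hspa1a, a heat shock protein, by 1.09 ± 0.09; Fos stood at -0.26 ± 0.14 (adjusted p = 0.327). Interferon response genes rose in 6 of 22 and fell in 1; H2-K1, a class I histocompatibility gene, rose by 0.99 ± 0.10 but stood at 0.20 in the 125 cells (adjusted p = 0.539). Regional transcription factors rose in 4 of 19 and fell in 2, Hand2, a factor of the outflow tract, by 0.72 ± 0.11. Receptor and channel genes rose in 3 of 20 and fell in 3; Piezo1, a mechanically gated channel, rose by 1.56 ± 0.27. The cell cycle genes Cenpf, Rrm2 and Birc5 rose, 3 of 11, with 91.7% or more of their UMIs from cells with other markers, and Cenpf and Birc5 were at 0 in KO replicate 2, so that without KO replicate 1 neither was higher.

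Against WT cells, with no library block possible, 9.07% of genes passed in Eln-high KO cells, 674 of 13259 higher (5.08%) and 529 lower (3.99%). In Eln-low KO cells 21.4% passed, 1400 of 14384 higher (9.73%) and 1673 lower (11.6%). Both comparisons share the WT libraries, and their sums differ in depth, so their values are given side by side. Fbln5 stood at 0.07 ± 0.16 against WT in Eln-high cells (adjusted p = 0.861) and at -2.62 in Eln-low cells. Col1a1 stood at 0.28 and -1.14, Sparc at -0.05 and -1.44, Mgp at -0.23 and -1.59, and Klf2 at -0.15 and -2.07, none of them passing in Eln-high cells. Without cells with other markers, however, Fbln5 was lower than in WT cells (-0.96, adjusted p = 0.000397), and so were Col1a1 (-0.34, adjusted p = 0.031) and Sparc (-0.64, adjusted p = 0.00324). In the 125 cells these 3 genes stood further below WT, Fbln5 at -1.76 (adjusted p = 0.00365), Col1a1 at -0.53 (adjusted p = 0.00629) and Sparc at -1.16 (adjusted p = 0.000363). Mgp stood at -0.95 (adjusted p = 0.147) and Klf2 at -0.22 (adjusted p = 0.469) in the 125 cells. Other genes remained lower than WT in both groups: Mfap4 stood at -2.14 in Eln-high and -4.34 in Eln-low cells, Pmepa1 at -1.12 and -3.09, Ccn2 at -1.25 and -2.65 and Nupr1 at -0.90 and -3.68. Fos, an immediate early gene, was lower in both, at -2.83 and -2.59, and so was Aspn, a small matrix proteoglycan, at -2.19 and -3.99.

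Counted by list, TGF-beta targets were higher than WT for 2 of 17 and lower for 8 in Eln-high KO cells (median log2 -0.66), and higher for 2 of 18 and lower for 15 in Eln-low KO cells (-1.14). Elastic fibre genes were higher for 4 and lower for 2 in Eln-high KO cells, and higher for 1 and lower for 11 in Eln-low KO cells. Interferon response genes were higher than WT for 15 of 21 in Eln-high KO cells (median 1.81) and for 17, with 1 lower, in Eln-low KO cells (1.51). Contractile genes were higher than WT for 2 of 36 and lower for 12 in Eln-high KO cells, and higher for 16 of 37 and lower for 6 in Eln-low KO cells. Genes of steep change between all KO and WT cells, a list drawn from these samples and so no independent evidence, rose in 10 of 18 and fell in 2 against Eln-low KO cells. Myh11 stood at -0.07 ± 0.11 against WT in Eln-high cells (adjusted p = 0.772) and at 0.44 in Eln-low cells. Sncg, Notch3 and Vcam1 were above WT by 1.86, 1.72 and 2.52 in Eln-high KO cells, and at 0.53, 0.15 and -0.31 in Eln-low KO cells.

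The same rule applied to WT cells separated 4873 Eln-high from 219 Eln-low cells, and the Eln-low ones were shallower (median 8461 and 11818.5 UMIs). Between them 3.74% of genes passed, with 315 of 13839 higher in Eln-high WT cells (2.28%) and 202 lower (1.46%). The split turned to 247 higher and 296 lower with RLE (median ratio) size factors in place of TMM, and to 58 higher and 99 lower with DESeq2. Mfap4 differed by 1.10, Col1a1 by 0.90, Ccn5 by 2.13 and Des by -1.40 in WT cells, each in the direction seen in KO cells. Of the genes called in both genotypes, 107 were higher and 59 lower in both, and 60 had opposite directions. The KO test called 10.1% of its genes and the WT test 3.74%, and the overlap to be had from these rates alone was not worked out. The overlaps rest on TMM factors, so they share the dependence of the WT split on the size factors. The difference between Eln-high and Eln-low cells was itself tested against that in WT in a fit of 8 sums: 242 genes (1.75%) had a more positive and 355 (2.57%) a more negative difference in KO, with a median of -0.11 over all genes. This split also turned, to 295 more positive and 220 more negative with RLE size factors (median -0.02) and to 183 and 58 with DESeq2 (median -0.01). Fbln5 differed by 2.19 ± 0.12 more in KO cells, Nupr1 by 2.28 ± 0.12, Klf2 by 2.40 ± 0.15 and Sncg by 2.25 ± 0.13. With Eln-high cells of only 10 to 20 per 10000, the difference for Fbln5 was 0.74 (adjusted p = 0.21) and that for Nupr1 1.06 (adjusted p = 0.0579), and neither passed. Klf2 and Sncg ran opposite ways, at -0.51 and -0.94 in WT cells.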

How the data were processed

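Single-cell RNA was captured with Chromium 3′ v3.1 chemistry, per the labels' protocols, and the deposited UMI counts per gene and barcode carry Cell Ranger 5.0.1 in their headers; the submitters' processing notes name the mm10 build and Seurat 4.0 without giving their roles. The authors deposited the counts without normalization. The labels state 4376, 3707, 2597 and 3420 cells before and 4031, 3246, 2151 and 3000 after the authors' filter for KO replicates 1 and 2 and WT replicates 1 and 2; the files hold 4504, 3858, 2769 and 3565 barcodes, of which 4252, 3522, 2429 and 3265 passed the filter used here.

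Counts were summed per library and Eln class and tested in R 4.3.3 with edgeR 4.0.16 (TMM factors, filterByExpr, quasi-likelihood test, Benjamini-Hochberg over all genes, Eln left out). Eln-high and Eln-low cells share a library, which was a block; comparisons with WT had none. DESeq2 1.42.0 was an alternative. CPM is counts per 1000000 UMIs of the sum. Neighbours (15, of all kept cells) were found in 30 principal components of 2000 variable genes without Eln (scanpy 1.11.5, scikit-learn 1.9.0). The edgeR tests of Eln-high against Eln-low KO cells, of Eln-high KO against WT cells and of the KO minus WT difference were checked on simulated counts. They recovered 56.7%, 60.8% and 27.8% of 2-fold changes, and 2.17%, 4.29% and 5.49% of their calls were false. Every simulated gene had the same relative spread between sums, which the real genes do not. The rates thus check the procedure in that setting and do not give the share of false calls in the real data. The other comparisons and DESeq2 were not checked in this way. The members, gene lists and marker lists were chosen with earlier results of these data known. Named genes were the 12 largest rises and 12 largest falls against Eln-low cells and the 8 of each against WT (passing, at least 20 CPM on average, same direction in both libraries), the 5 strongest interactions, the 3 smallest p of each of 19 lists, both receptors, Myh11 and the reporters; Fbln1, Lox and other list members are named in counts only. Restricting Eln-high cells to 10 to 20 per 10000, leaving out cells under 250 smooth muscle marker UMIs per 10000, and both restrictions on Eln and other markers together were added after seeing the data. A doublet caller marked 0.0235% to 0.947% of cells per library and was taken as not working; removing the top-scoring cells instead took out 3 Eln-high KO cells. UMIs of overlapping genes cannot be told apart where counting rules are not given. Intervals and limits for counts of 0 (3 counts) cover counting error only.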

Additional observations from a re-analysis of the deposited data

Results flagged for a closer look

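For 48 of the 82 named genes the difference between Eln-high and Eln-low cells itself differed between KO and WT libraries. The test was that of the interaction in the fit of 8 sums (edgeR, adjusted over all 13839 genes), which 4.31% of all genes passed. Many named genes were chosen for their KO difference, which is part of the interaction, and some for the interaction itself. A higher share among named genes therefore follows from the choice of genes and is not a result. The values below are the KO difference minus the WT difference on the log2 scale, against a median of -0.11 over all genes (-0.02 with RLE size factors and -0.01 with DESeq2).

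Among matrix genes it was 3.43 for Fbln2, 2.19 for Fbln5, 1.05 for Mfap4, 0.49 for Col1a1, 0.64 for Col3a1, 1.07 for Col15a1, 0.72 for Sparc, -1.39 for Sparcl1, 1.28 for Mgp, 2.08 for Pcolce, 1.99 for Aspn, 1.31 for Ccn5, 3.94 for Lum and 5.10 for Dcn. Cells with other markers supplied 93.9% of the Dcn UMIs and 96.7% of the Lum UMIs of Eln-high KO cells, Lum being itself one of those markers. Fbln5 stood at 0.85 against Eln-low cells in the 125 KO cells without other markers, against 2.65 in all. Among TGF-beta and BMP genes it was 1.46 for Pmepa1, 1.06 for Ltbp2, 1.05 for Ccn2, 1.19 for Tgfb1, 2.07 for Hey1 and 3.26 for Bmp4.

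Contractile genes and genes of the muscle lineage had -0.71 for Myh11, -0.74 for Des, -1.04 for Actg2, 0.52 for Tnnt2, -0.60 for Hand2 and -0.46 for Mef2c. Des and Tnnt2 fell in both genotypes, Tnnt2 by 1.37 in KO and 1.89 in WT cells, but without cells with other markers it stood at -2.03 in KO cells. Adhesion genes had 2.86 for Vcam1, -0.53 for Fermt2 and -0.65 for Itga1. Transcription and stress genes had 2.28 for Nupr1, 2.40 for Klf2, 2.14 for Klf4 and -0.69 for Fos, and the class I genes H2-K1 and H2-D1 had 0.95 and 0.65.

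Receptor and growth factor genes had 1.499 for Notch3, -0.91 for Rgs5, 0.75 for Igfbp2 and 0.90 for Igfbp4. The fibroblast marker Cd34 had 5.96, with 96.5% of its Eln-high KO UMIs from cells with other markers. Sncg had 2.25, Bex4 -0.78, Cldn22 -2.21, Dlgap1 -1.92, Wif1 -1.68, Tcap -1.32, Irs2 -1.07 and Atcayos -1.22. The Eln-low WT cells were shallower than the other cells, and the part of this in the differences was not tested.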

How the results depend on the processing

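The numbers of genes called depended strongly on which Eln-high cells were summed and on the tool, and the cause was not tested. For Eln-high against Eln-low KO cells (1368), DESeq2 called 444 (334 higher and 110 lower, all among those of edgeR), genes of at least 20 CPM gave 478, cells with 10000 to 20000 UMIs 837, cells thinned to 5000 UMIs 567, leaving out cells with tdTomato 862 and with other markers 718, Eln of only 10 to 20 per 10000 473 and this without other markers 500, leaving out cells low in smooth muscle markers 531, no replicate block 457, and leaving out a library 544 to 1340. For Eln-high KO against WT cells (1203) the counts were 1911 with no expression filter, 604 at 20 CPM, 715 at 10000 to 20000 UMIs, 626 thinned, 666 at Eln 10 to 20 without other markers, and 594 (without WT replicate 1) to 914 leaving out a library. For Eln-low KO against WT cells (3073) they were 1592 at 20 CPM and 1756 (without WT replicate 1) to 2443 leaving out a library. For Eln-high against Eln-low WT cells (517) they were 157 with DESeq2, 320 at 20 CPM, 288 at 10000 to 20000 UMIs, 146 thinned, 83 at Eln 10 to 20, 185 at this without other markers, 93 with no replicate block, and 170 to 476 leaving out a library. For the KO minus WT difference (597) they were 241 with DESeq2, 275 at 20 CPM, 1054 at Eln of 20 or more, 318 at 10000 to 20000 UMIs, 227 thinned, 363 without tdTomato, 324 without other markers, 105 at Eln 10 to 20, 238 at this without other markers, 240 without cells low in smooth muscle markers, 142 with no replicate block, and 311 to 453 leaving out a library.

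Counted from 20 Eln UMIs per 10000, Eln-high cells were 0.494% and 0.483% of KO cells; without cells low in smooth muscle markers, WT neighbours averaged 5.11% and the TGF-beta target medians 27.5 per 10000. Replicate numbers did not pair KO with WT libraries (correlation of replicate differences 0.0205 over 5908 genes), and a replicate block gave 1390 calls for Eln-high KO against WT and 3609 for Eln-low KO against WT.

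Signs turned, without a call, against Eln-low KO cells for Ly6a without tdTomato (-0.27); for Cytl1 (-1.71), Ptprb (-1.15) and Vwf (-0.77) at Eln 10 to 20; for Ptprb (-0.54), Vwf (-0.61) and Bmp4 (-0.29) at this without other markers; for Vwf (-0.78) and Cd34 (-0.16) without other markers; for Ptprb (-6.95), Pi16 (-0.12), Vwf (-0.79), Cd34 (-0.0103), Lum (-0.0646) and Bmp4 (-1.32) without cells low in smooth muscle markers; for Bmp3 (0.0658), Tgfb3 (-0.40) and Notch3 (-0.28) at 20 or more; and for Cenpf (-6.49 without KO replicate 1, 6.40 without KO replicate 2) and Birc5 (-5.85 and 3.91), which were at 0 in KO replicate 2. Against WT, Cytl1 turned to -1.46 and Ptprb to -0.68 at Eln 10 to 20, and to -1.07 and -0.51 without other markers as well. Vwf and Cd34 are among the other markers, so the loss of their rise in cells without such markers follows from the choice of cells. Of 82 named genes, 12 lost their call against Eln-low KO cells with DESeq2, 17 with no replicate block, 10 without KO replicate 2 and, beside Cenpf and Birc5, 7 without KO replicate 1; RLE factors, leaving out either WT library or shared barcodes and removing the top doublet scores changed none of these calls. Restricting the Eln-high cells took the call from 18 named genes at Eln 10 to 20, from 14 without other markers and from 27 with both restrictions. Without cells low in smooth muscle markers 19 lost it. The genes whose sign turned, given above, come on top of these counts. Depth limits genes under about 20 CPM, since the Eln-high sums hold 1596094 and 931603 UMIs.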
